A study of Arabidopsis thaliana with 12 samples.

Results

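AT5G55580, the gene of mTERF9, and AT4G09040, the gene of an RNA-binding protein, are nuclear genes counted here among the factors of plastid gene expression. Each was measured by 1 probe whose platform annotation names that gene alone, out of 692 probes that name 1 gene and 3439 probes in all. The 2 genes were chosen because their signal was higher after light in these same samples, so the difference between light and dark is given for them as a description, with no test.

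All plants were wild-type Arabidopsis thaliana of the Landsberg ecotype. In the light group, 6 samples came from plants given 30 min of light at the end of 12 h of darkness. In the dark group, 6 samples came from plants kept in darkness for 12 h. The labels name no organ, no plant age and no number of plants per sample, and as darkness was not prolonged by 30 min in any group, an effect of light cannot be told apart from one of time.

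Chloroplasts keep a small genome of their own, but nearly all proteins that transcribe, process and translate its messages are encoded in the nucleus and imported. Proteins of the mTERF family, named after a mitochondrial transcription termination factor of animals, bind nucleic acids in mitochondria or chloroplasts through a series of helical repeats. mTERF9 is a chloroplast member that associates with ribosomal RNA and acts in the assembly and work of the plastid ribosome. RNA-binding proteins of chloroplasts protect messenger RNAs from degradation and take part in their processing, editing and splicing.

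The deposited intensities are linear values of unknown unit. The array totals lay between 3532 and 3666 in light samples and between 3247 and 3321 in dark samples, and the array median was 0.678 ± 0.00794 in light and 0.467 ± 0.0202 in the dark (SD, n = 6 each). On the log2 scale the medians differed by 0.54 (two-sided exact permutation test over 924 assignments, p = 0.00216, which is the smallest possible). That test takes the 12 samples as freely exchangeable. With light and dark swapped only within a replicate number, the 64 arrangements give an exact two-sided p = 0.0312, again the smallest possible, with light higher in 6 of 6 numbers, and the likeness of consecutive numbers is not accounted for in either. Differences of genes are therefore given after quantile normalization, as log2 of the normalized intensity, light minus dark. Of 10 green tissue markers, 5 had a probe of their own, with no value at the floor. In a limma fit over all probes, 1 of them was called higher in light (the photosystem II subunit PSBW, at 0.50), 3 were called lower (the antenna protein LHB1B2, the Calvin cycle enzyme PRK and the photosystem I subunit PSAN, at -1.26, -1.12 and -0.99) and the Calvin cycle enzyme SBPASE, at -0.05, was not called, all as normalized log2 differences. Among all probes that name 1 gene, 24.4% were called higher and 24.4% lower, so 48.8% were called in either direction. The 3 lower calls held under all 4 scalings (quantile, as deposited, centred arrays and cyclic loess), whereas PSBW was called lower with centred arrays, at -0.46, and SBPASE higher as deposited, at 0.46. No marker of root, seed, guard cell, phloem, epidermis or flower was measured by a probe of its own. As these are bulk samples, a change in the number of cells of a type and a change in RNA per cell cannot be told apart.

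mTERF9 (AT5G55580, on chromosome 5) was several times brighter after light in every sample. Its deposited intensity in light samples 1 to 6 was 3.53, 3.65, 2.71, 2.80, 3.01 and 3.10. In dark samples 1 to 6 it was 0.436, 0.543, 0.407, 0.441, 0.357 and 0.369. The groups lie far apart, and the lowest light value was 4.98 times the highest dark value. The gene averaged 3.13 ± 0.382 in light and 0.426 ± 0.0668 in the dark (SD, n = 6 each), a ratio of 7.36. Relative to the median of its own array, it stood at 4.62 ± 0.566 times the median in light and at 0.914 ± 0.158 times the median in the dark (SD, n = 6 each), a ratio of 5.05. After quantile normalization the log2 difference was 2.57 ± 0.11 (SE, n = 6 each), or 5.94-fold. These ratios are on different scales and are not interchangeable.

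AT4G09040 (on chromosome 4), the RNA-binding protein, was also brighter in every light sample than in any dark sample, and it varied more in the dark than mTERF9 did. Its deposited intensity in light samples 1 to 6 was 1.43, 1.37, 1.12, 1.31, 1.79 and 1.50. In dark samples 1 to 6 it was 0.300, 0.137, 0.321, 0.225, 0.209 and 0.211. The lowest light value was 3.50 times the highest dark value. The mean was 1.42 ± 0.221 in light and 0.234 ± 0.0673 in the dark (SD, n = 6 each), a ratio of 6.08. Relative to the array median it stood at 2.10 ± 0.345 times the median in light and at 0.500 ± 0.142 times the median in the dark (SD, n = 6 each). The normalized log2 difference was 2.26 ± 0.19 (SE, n = 6 each), or 4.80-fold. The SD of its 6 dark intensities was 28.8% of their mean, against 15.7% for mTERF9. The lowest dark value, in sample 2, stayed above the floor set on low values, and no value of either gene was at that floor. With the floor at the 10th percentile instead of the 5th, the log2 difference of AT4G09040 was 2.22, at rank 7. That of mTERF9 stayed at 2.57. Intensities of different probes have no common scale, so the 2 genes' levels do not say which transcript was more abundant.

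**Figure D1:**
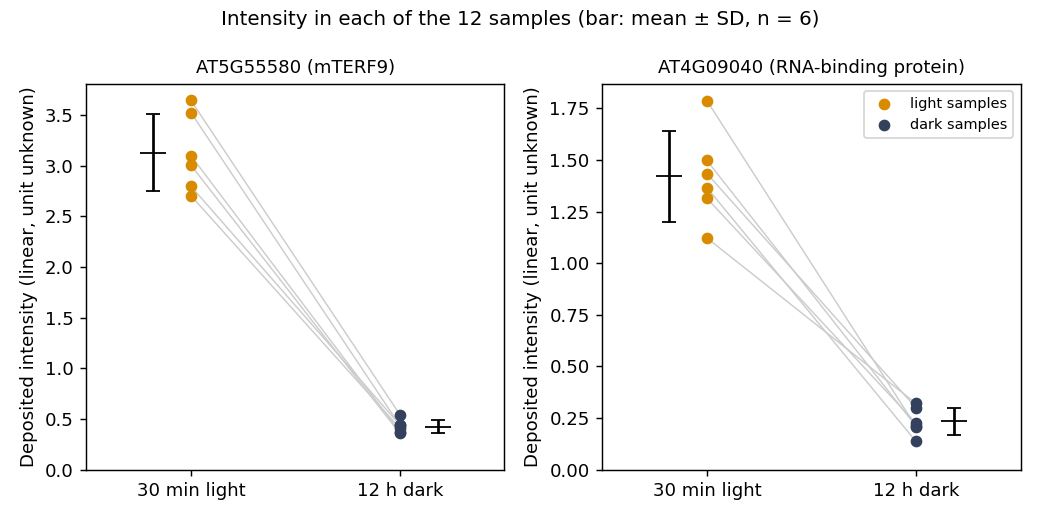
Deposited intensity (linear, unit unknown) of AT5G55580 on the left and AT4G09040 on the right in 6 light and 6 dark samples, with the mean and SD as bars and grey lines joining samples of equal replicate number. For AT5G55580 the light values lie between 2.71 and 3.65 and the dark values between 0.357 and 0.543, and for AT4G09040 the light values lie between 1.12 and 1.79 and the dark values between 0.137 and 0.321.

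For both genes all 6 light values exceeded all 6 dark values as deposited, a scale on which the array medians were also higher in light. The same held for 29.9% of the 692 probes that name 1 gene, and since both were picked on this contrast nothing is read from that share. In the limma fit over all probes, 24.4% of the probes that name 1 gene were called higher in light at an adjusted p under 0.05, and 24.4% were called lower.

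Among the 692 probes that name 1 gene, mTERF9 had the 5th and AT4G09040 the 6th largest rise. Among all 3439 probes, named or not, they ranked 15 and 29. Directly above mTERF9 stood AT1G24040, with a log2 difference of 2.80 ± 0.20 (SE) and intensities of 4.53 ± 0.978 in light and 0.592 ± 0.183 in the dark (SD, n = 6 each). Directly below AT4G09040 stood AT3G25680, with a log2 difference of 2.23 ± 0.14 (SE) and intensities of 0.929 ± 0.106 in light and 0.147 ± 0.0305 in the dark (SD, n = 6 each). The place of AT4G09040 is loosely set, since its difference exceeded that of the next gene by less than its own SE, and 2 dark values of that next gene were at the floor.

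**Figure D2:**
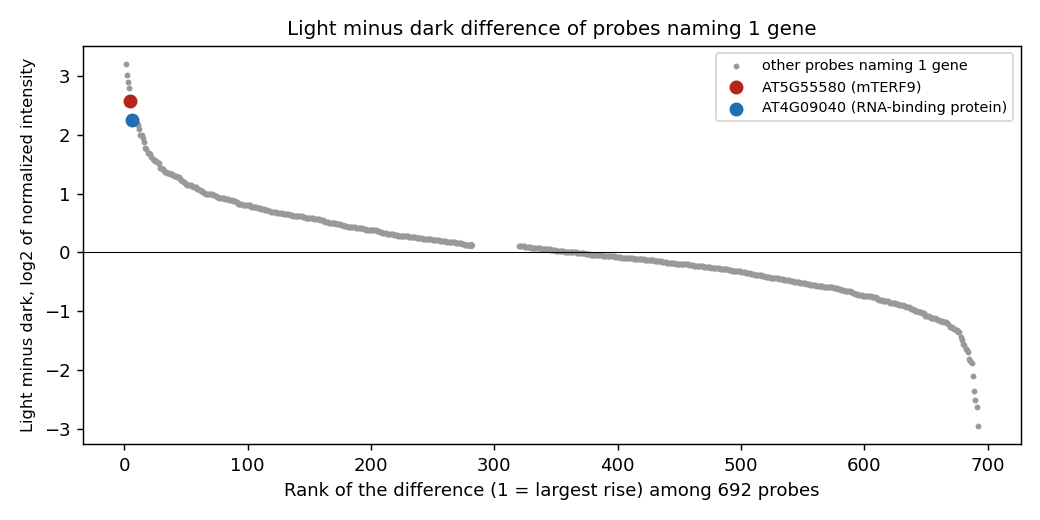
Light minus dark difference (log2 of normalized intensity) of the 692 probes that name 1 gene, in order of rank, with each grey point 1 probe. AT5G55580 at rank 5 (2.57) and AT4G09040 at rank 6 (2.26) lie in the steep left end, next to the largest rise of 3.21, and the break in the middle stands for probes at the floor in every sample, which share a rank. Their shared difference of 0.12 is that of the floors, which were 0.145 to 0.153 in light and 0.129 to 0.142 in the dark, and is not a measured rise.

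The labels give light and dark samples the same replicate numbers, and samples of equal number deviated together across probes. Taken number by number, the log2 difference of mTERF9 was 2.57, 2.39, 2.47, 2.43, 2.77 and 2.79 for numbers 1 to 6. These values are close to each other, with an SD of 0.17, and the gene ranked between 3 and 8 of 692 in each number taken alone. For AT4G09040 the differences were 1.82, 2.88, 1.43, 2.28, 2.74 and 2.43 for numbers 1 to 6, with an SD of 0.55. Its rank ran from 4 in number 5 to 27 in number 1 and 36 in number 3. The low differences of numbers 1 and 3 go with the 2 highest dark intensities, 0.300 and 0.321. The largest difference, in number 2, goes with the lowest dark intensity, 0.137.

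Consecutive numbers also resembled each other. For mTERF9 in light, the means of numbers 1 and 2, 3 and 4, and 5 and 6 were 3.59, 2.75 and 3.05, while the 2 samples within such a pair differed by 0.121, 0.0930 and 0.0933. The spread of mTERF9 in light thus lay mostly between these pairs. For AT4G09040 in light the means were 1.40, 1.22 and 1.64, and the samples within a pair differed by 0.0681, 0.192 and 0.290. Its pair means also lay apart, but the split was less marked than for mTERF9. As the 2 probes have no common scale, the size of these gaps is not compared between the genes. Averaged over such pairs, the log2 difference was 2.48, 2.45 and 2.78 for mTERF9 and 2.35, 1.85 and 2.59 for AT4G09040. Both genes had their largest difference in numbers 5 and 6 and their smallest in numbers 3 and 4.

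The rise of mTERF9 exceeded that of AT4G09040 by 0.31 on the log2 scale. It was the larger in 5 of 6 numbers, with the gap by number ranging from -0.49 to 1.04, which is wider than the gap itself. With light and dark pooled, the deviations of the 2 genes from their group means correlated weakly. The value was r = -0.16 over the 12 samples, in which each array gives a value for both genes. That r joins 2 groups that look unlike. In light both genes were lowest in sample 3, whereas dark sample 2 was the highest dark sample for mTERF9 and the lowest for AT4G09040.

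**Figure D3:**
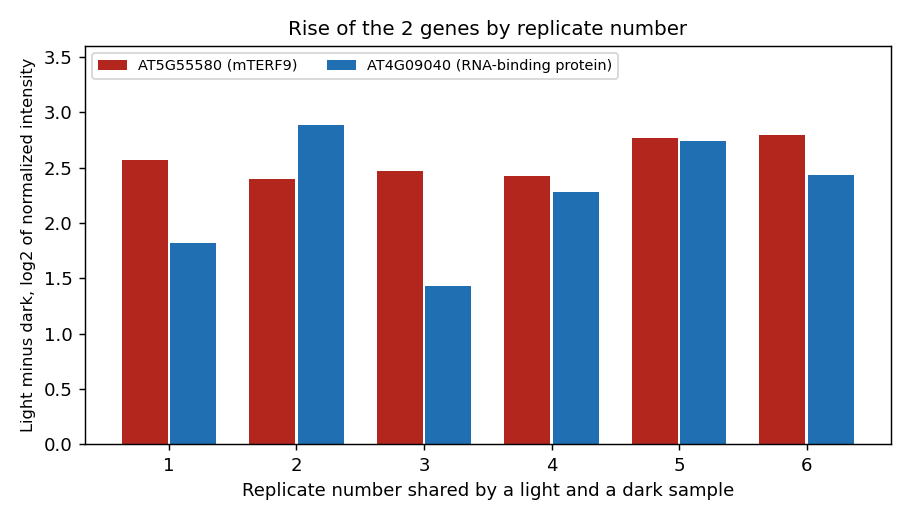
Light minus dark difference (log2 of normalized intensity) for each replicate number shared by a light and a dark sample, with a bar for AT5G55580 and a bar for AT4G09040. The bars of AT5G55580 lie between 2.39 and 2.79, and those of AT4G09040 between 1.43 and 2.88.

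A further probe bears on mTERF9. Its annotation lists AT5G55580 together with AT1G78930, which is also on the list of the mTERF family used here, so that its signal cannot be assigned to either gene. Its deposited intensity in light samples 1 to 6 was 0.368, 0.411, 0.392, 0.467, 0.367 and 0.401. In dark samples 1 to 6 it was 0.453, 0.585, 0.430, 0.552, 0.506 and 0.492. The signal was lower in light for every replicate number, although light sample 4 lay above dark samples 1 and 3. The mean was 0.401 ± 0.0367 in light and 0.503 ± 0.0585 in the dark (SD, n = 6 each). The normalized log2 difference was -0.84 ± 0.09 (SE, limma adjusted p = 7.35e-06), and 29.0% of all 3439 probes were called lower. With consecutive numbers averaged first, the limma adjusted p of this probe was 0.00293. The fall was smaller on the values as deposited, at -0.32 (limma adjusted p = 0.0127). The probe of mTERF9 alone and the probe that lists it with a second gene thus moved in opposite directions.

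In the TAIR10.1 gene table, AT5G55580 overlaps the neighbouring gene AT5G55570, which has a probe of its own. That neighbour was looked up for its position, outside the rule for named genes. It stood at 0.336 ± 0.0490 in light and at 0.275 ± 0.0431 in the dark (SD, n = 6 each), with a normalized log2 difference of -0.23 ± 0.13 (SE, limma adjusted p = 0.154). Its intensity as deposited was thus higher in light while its normalized difference was below 0, and it was not called. The protein-coding genes on either side of AT4G09040 do not overlap it and have no probe of their own.

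Other genes were read from 5 lists of 106 genes drawn up for plastid gene expression, of which 8 besides the 2 genes above had a probe of their own. Of these 8, 6 came from the list of the mTERF family, whose members act in mitochondria or chloroplasts. Which of the 6 act in plastids was not checked, so the counts below are of list genes. The gene table names only ATAB2 among these 8, and the others were put in a list from general knowledge. Of the 8 genes, 2 rose, 1 fell and 5 were not called, at a background of 48.8% called in either direction among probes that name 1 gene and 52.5% among all probes. Their median log2 difference was 0.15, against 0.04 over all 692 probes. No sigma factor, polymerase-associated protein or plastid RNA processing factor from the lists was measured in this way. The gene table holds no gene descriptions, so probes of such factors missing from the lists were not looked for. Whether plastid RNA processing was measured by other probes is therefore not known from these counts.

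In the mTERF family, 6 members besides mTERF9 were measured, and they did not share a direction. AT4G09620 had a lowest, median and highest intensity of 1.79, 2.36 and 2.81 in light, against 0.635, 1.02 and 1.23 in the dark. On the deposited values the groups did not overlap, as for 29.9% of the probes naming 1 gene in this direction. AT4G09620 rose by 1.07 ± 0.18 on the log2 scale (SE, limma adjusted p = 0.000276), or 2.10-fold. With consecutive numbers averaged first, its limma adjusted p was 0.0227. AT3G46950 had a lowest, median and highest intensity of 0.480, 0.625 and 0.653 in light, against 0.665, 0.920 and 1.04 in the dark, again with no overlap, as for 8.09% of the probes naming 1 gene in this direction. Its log2 difference was -1.02 ± 0.11 (SE, limma adjusted p = 5.32e-06), a fall to 0.495 times the dark level. The limma adjusted p was 0.0043 with consecutive numbers averaged first.

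AT3G18870 had a lowest, median and highest intensity of 0.950, 1.06 and 1.12 in light, against 0.270, 0.537 and 0.788 in the dark. As deposited these did not overlap either, as for 29.9% of the probes naming 1 gene in this direction. On that scale the array medians were also higher in light, at 0.678 against 0.467. Whether the groups overlap once that shift is taken out was not tested. It was called higher (limma adjusted p = 0.0297), by 0.59 ± 0.21 on the log2 scale (SE). That call was lost with arrays centred on their median, at 0.51 (limma adjusted p = 0.0547), and with consecutive numbers averaged first, at 0.59 (limma adjusted p = 0.164). It was also lost without light sample 2, 5 or 6 or without dark sample 2, at limma adjusted p of 0.0503, 0.0527, 0.0568 and 0.0675.

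The remaining 3 mTERF genes were AT1G61990, AT1G62010 and AT1G62150, with log2 differences of 0.06 ± 0.32, -0.11 ± 0.18 and -0.23 ± 0.10 (SE), none of them called. They carry neighbouring locus numbers in one family, and whether their probes bind each other's transcripts was not tested. AT1G62150 was called lower with the replicate number as a block (limma adjusted p = 0.0277) and with centred arrays, at -0.31 (limma adjusted p = 0.0205), and stood at 0.23 as deposited (limma adjusted p = 0.0940). Without dark sample 1 it was called lower at -0.27 (limma adjusted p = 0.0344). The median difference of the 6 was -0.03, against 0.04 over all 692 probes and 2.57 for mTERF9.

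Besides AT4G09040, the list of chloroplast ribonucleoproteins had 1 measured member. AT1G01080 stood at 0.581 ± 0.127 in light and 0.346 ± 0.0897 in the dark (SD, n = 6 each), and its normalized log2 difference of 0.24 ± 0.20 (SE, limma adjusted p = 0.325) was not called. ATAB2 (AT3G08010), an RNA-binding protein that acts in the translation of photosystem messages, had intensities of 0.269 ± 0.0326 in light and 0.151 ± 0.0797 in the dark (SD, n = 6 each). Its log2 difference was 0.28 ± 0.17 (SE, limma adjusted p = 0.178), and 2 of its dark values were at the floor. On the values as deposited both were called higher, AT1G01080 at 0.76 (limma adjusted p = 0.00272) and ATAB2 at 0.73 (limma adjusted p = 0.00323), a scale on which all probes had a median difference of 0.44.

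**Figure D4:**
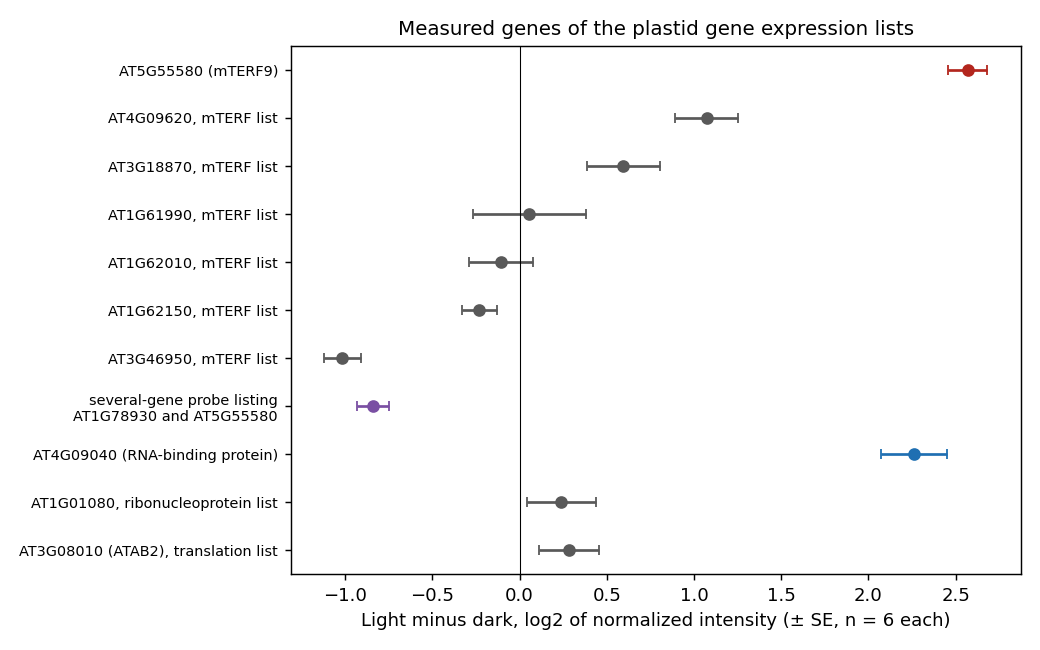
Light minus dark difference (log2 of normalized intensity, with SE, n = 6 each) of AT5G55580 and AT4G09040 in colour, the 8 other measured genes of the plastid gene expression lists in grey, and in violet the probe that lists AT5G55580 with AT1G78930. Of the 8, 6 came from the list of the mTERF family, and which of them act in plastids was not checked. The grey points run from -1.02 to 1.07, and the violet point lies at -0.84.

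The pattern most like that of mTERF9, by Pearson's r of normalized log2 values over the 12 samples, was sought among 496 other genes above the 25th percentile of mean level. As the samples form 2 groups set apart by light, r mainly reflects a difference between groups that is large relative to the spread within them. The 5 genes were AT5G46560 (r = 0.993), AT4G16410 (0.989), AT1G51350 (0.989), AT3G04650 (0.988) and AT3G52070 (0.982). Their log2 differences were 2.22, 1.30, 3.21, 1.20 and 2.21 in the same order. Once the group means were taken out, their deviations correlated with those of mTERF9 at r = 0.59, 0.067, 0.37, 0.70 and -0.17 over 12 samples, again in the same order. Over all 496 genes such correlations had a median of 0.16 and ran from -0.76 at the 5th to 0.76 at the 95th percentile, so none of the 5 stood outside that range.

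For AT4G09040 the 5 genes were AT4G14330 (r = 0.962), AT5G42680 (0.949), AT2G28540 (0.948), mTERF9 itself (0.947) and AT4G16410 (0.946). The deviations from group means correlated at r = 0.51, 0.39, 0.20, -0.16 and -0.76 over 12 samples, in the same order. Over all 496 genes the median was -0.013, with 0.43 at the 95th and -0.48 at the 5th percentile. The likeness of AT4G16410 to AT4G09040 thus rested on the difference between light and dark and not on the spread within the groups. The list for AT4G09040 was not stable, as 2 of its 5 genes were kept on the values as deposited.

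The probes of the 2 genes stand close in the table of values, with 3 probes between them. Of these, AT1G76050 had a log2 difference of 0.90, and 2 probes without a gene name had differences of 1.31 and -0.20. What the order of probes means for their place on the array is not given in the sources used here.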

How the data were processed

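Per the labels, total RNA of 12 samples was measured, grouped and numbered 1 to 6 from their titles. The authors deposited intensities per probe on a linear scale. How they were scanned, background-corrected and scaled is not given in the sources used here. The number of arrays limits the precision, and no measure of background accompanies the values. Nothing says that samples came from separate plants, so p-values measure a spread that may be technical.

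The intensities were quantile-normalized, values under the 5th percentile of a column's positive values were set to that floor before taking log2. Light and dark were compared over all 3439 probes with limma 3.58.1 (lmFit, eBayes; R 4.3.3), without a block, with two-sided p-values adjusted by Benjamini-Hochberg and a threshold of 0.05. The fit was also run on simulated data whose noise was drawn separately for each sample. That run does not show how the fit behaves where samples deviate together. Deviations of equally numbered light and dark samples from their group means correlated at 0.41 to 0.65, and 6 of 6 numbers matched best with their own, so the numbers were taken as pairs; what a number marks is not stated. Of the 692 probes naming 1 gene, 690 matched the TAIR10.1 table by gene identifier.

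The 2 genes and the lists were chosen with earlier results of these data known. Other named genes were every measured list member, the 5 most alike in pattern, the next in rank, and the probe listing a second gene. Alternatives were other scalings, floors, a filter, averaged consecutive numbers, the replicate block and each sample left out.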

Additional observations from a re-analysis of the deposited data

Results flagged for a closer look

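In 60 groups of 6 normalized log2 values of the named probes, 2 groups held a sample set apart from its group, where about 1 in 20 is due to chance. For AT3G25680, next in rank below AT4G09040, light sample 6 had -0.657, and the other light samples lay between -0.322 and -0.147. For LHB1B2 (AT2G34420), dark sample 6 had 4.45, and the other dark samples lay between 3.77 and 4.02. No group of mTERF9 or AT4G09040 held such a sample.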

How the results depend on the processing

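Under the 20 alternatives run, the log2 difference of mTERF9 ranged from 2.35 to 2.88 and that of AT4G09040 from 1.91 to 2.64. The filter, the averaged consecutive numbers and the replicate block cannot move these differences. For mTERF9 it was 2.88 as deposited, 2.35 with centred arrays and 2.36 without a floor at a pseudocount of 0.1, and 2.50 to 2.64 with 1 sample left out. Relative to the median difference of all probes, which was 0.44 as deposited and -0.10 with centred arrays, mTERF9 stood at 2.44 and AT4G09040 at 2.20 under both. These must be equal, as centring shifts all probes of an array alike. mTERF9 ranked 4 or 5 throughout. AT4G09040 ranked 12 with cyclic loess, 10 without a floor, and 6 to 11 with 1 sample left out; it was 10 without light sample 5 or 6 and 11 without dark sample 2.

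Of all probes, 1807 were called, 811 of them higher and 996 lower. As deposited 1715 were higher and 479 lower, and 368 and 81 among probes naming 1 gene, against 169 and 169. Above the median level 1077 were called (511 higher, 566 lower, and 97 and 87 naming 1 gene), with fewer probes tested. With consecutive numbers averaged, which leaves fewer samples, 1199 were called, 520 of them higher, and 110 naming 1 gene were higher. With 1 sample left out 1688 to 1818 were called. The array medians differed by 0.52 to 0.55 with 1 sample left out. The swap within replicate numbers, chosen after seeing the data, changes only the p-value and cannot move their difference of 0.54. The replicate block left the number of probes called within 1.5 times. Of the 8 list genes, 4 were called higher as deposited, 1 with centred arrays and 1 with averaged numbers, and 2 lower with centred arrays and 2 with the replicate block; with 1 sample left out 1 to 2 were higher and 1 to 2 lower.

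AT1G62010 turned to 0.38 and AT1G62150 to 0.23 as deposited, and AT1G62010 ranged from -0.19 to 0.027 with 1 sample left out, above 0 without dark sample 2. AT1G61990 turned to -0.016 with centred arrays and ranged from -0.13 to 0.26 with 1 sample left out, below 0 without light sample 1 or 2 or dark sample 4, 5 or 6. The calls of AT4G09620 and AT3G46950 held under all 20 alternatives, and that of the probe listing 2 genes under the 19 that tested it. The cause of these shifts was not tested. No measure of signal over background accompanies the values, so how far dim probes can be read is unknown.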
